A study of Mus musculus with 8 samples.

Results

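Immediate early genes are transcribed within minutes of a stimulus, before any new protein has to be made, and their transcripts are short-lived. The 10 genes described here, *Fos*, *Fosb*, *Jun*, *Junb*, *Jund*, *Egr1*, *Egr2*, *Egr3*, *Ier2* and *Atf3*, were taken by gene name from a table of 54532 genes, and all 10 were found. RNA-seq was performed on whole retinas of 4 *Mettl3*-CKO and 4 control mouse samples at postnatal day 7 (p7) according to the labels, while the methods name the day before. *Mettl3*-CKO retinas were *Six3-Cre*+; *Mettl3* floxed/floxed (also called mutants here), and the Cre and floxed alleles of the controls are not given in the sources used here. Whether the controls were littermates of the mutants is not stated for the RNA-seq samples. *Six3-Cre* is active in retinal progenitors, so that neurons and Müller glia descend from cells with the deletion while vessels and microglia, which arise elsewhere, keep *Mettl3*. The study shows the deletion in the central retina, and the libraries hold the whole retina. The comparison asks how far these transcripts differed with the genotype, beyond what they differed between samples of one genotype.

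FOS and FOSB pair with the JUN proteins to form the AP-1 transcription factor. EGR1, EGR2 and EGR3 are zinc finger transcription factors, ATF3 is a stress-induced transcription factor that also pairs with JUN proteins, and IER2 is a nuclear protein of the early serum response. Kinase cascades switch these genes on through SRF and its ELK partners and through CREB, and proteins that bind AU-rich elements in the 3′ untranslated region (3′ UTR) destabilize several of the transcripts. METTL3 is the catalytic subunit of the complex that writes m6A, a methyl mark that can also shorten the life of an mRNA. Tissue handling is itself known to switch immediate early genes on, and the methods state that the retinas went straight into TRIzol.

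The start sites of *Fos*, *Jun*, *Junb* and *Fosb* are shown because these 4 genes, all AP-1 subunits, had negative fold changes and carry the motif matches marked below. Each line gives the 120 bases before the start site in the RefSeq table (GRCm38.p6), 5′ to 3′ on the gene's strand, with the matches in capitals.
Fos, chr12:85473770-85473889, plus strand: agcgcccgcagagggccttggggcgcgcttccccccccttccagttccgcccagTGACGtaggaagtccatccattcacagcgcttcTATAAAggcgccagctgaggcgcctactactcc
Jun, chr4:95052223-95052342, minus strand: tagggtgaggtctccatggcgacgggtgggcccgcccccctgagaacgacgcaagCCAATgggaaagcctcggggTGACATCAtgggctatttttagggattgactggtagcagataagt
Junb, chr8:84978749-84978868, minus strand: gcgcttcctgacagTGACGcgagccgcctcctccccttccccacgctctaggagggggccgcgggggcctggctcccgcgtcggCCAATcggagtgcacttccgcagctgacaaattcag
Fosb, chr7:19310046-19310165, minus strand: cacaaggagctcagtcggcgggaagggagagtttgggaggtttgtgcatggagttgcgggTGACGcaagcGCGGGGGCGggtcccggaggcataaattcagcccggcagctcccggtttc
The letters TGACG, the core of a CREB site, begin 66 bases before the start of *Fos*, 106 before that of *Junb* and 60 before that of *Fosb*. *Jun* has TGACATCA from 45 bases before its start, a match to TGACNTCA. TATAAA lies 33 bases before the start of *Fos*, CCAAT 65 bases before that of *Jun* and 36 before that of *Junb*, and GCGGGGGCG, a match to the EGR motif GCGNGGGCG, 50 before that of *Fosb*. In the 250 bases before the start site, on either strand, 17.8% of 32851 promoters in the table held TGACG, 7.49% TGACNTCA, 12.4% TATAAA, 33.8% CCAAT and 4.70% GCGNGGGCG. A match to TGACGTCA would count under both TGACG and TGACNTCA. The CArG box, the motif of SRF, was also searched for and not found there in these 4 genes, while 1.47% of promoters held it. These matches are descriptions of letters and not of bound sites. The table held promoters for 7 of the 10 genes.

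The 3′ UTRs, taken from the GENCODE vM21 models of GRCm38, differ in AU-rich pentamers (ATTTA). *Fos* has 4 in 815 bases, a count reached by 9.82% of 3′ UTRs of similar length, *Jun* 4 in 1233 bases (22.8%), *Junb* 2 in 485 bases (19.9%) and *Ier2* 0 in 755 bases. *Fosb* has 1 in 2145 bases (91.2%). The share was 53.9% for *Egr1*, 52.6% for *Jund*, 35.2% for *Egr2*, 34.7% for *Atf3* and 25.8% for *Egr3*. *Fos* is the single member with the nonamer TTATTTATT, which 5.37% of 3′ UTRs of similar length contain. The stretches with most pentamers of *Fos*, *Jun* and *Junb*, with ATTTA in capitals, lie at bases 642 to 671, 1031 to 1060 and 239 to 268 of their 3′ UTRs.
Fos: ttgtgttttcaATTTATTTAttaagatgga
Jun: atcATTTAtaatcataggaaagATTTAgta
Junb: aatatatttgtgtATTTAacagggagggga
GGACT, a common core of m6A sites, occurs 4 times in the 3′ UTR of *Ier2* (1.06% of 3′ UTRs of similar length have as many), 3 times in that of *Jund* (3.60%), 2 times each in those of *Fos*, *Jun*, *Egr3* and *Atf3*, and 1 time each in the other four. Whether any of them was methylated was not analysed here.

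Total counts ranged from 16227095 to 20281517 per sample, so that 3 counts correspond to 0.147 to 0.184 CPM (counts scaled to the TMM-adjusted total over tested genes, as in all CPM values here), and mitochondrial transcripts took 1.69 to 2.38% of the counts, most in control replicate 1. *Mettl3* itself ranged from 29.3 to 33.8 CPM over the controls and from 21.1 to 29.6 CPM over the mutants (log2 fold change -0.38, SE 0.12, adjusted p = 0.0602), on counts summed over the whole gene, and *Mettl3*-CKO replicate 2 lay within the control range. Rod genes, which define the tissue, summed to between 1259 and 3644 CPM in every sample. Lens genes summed to 2529 CPM in control replicate 4, 51.6 CPM in control replicate 1 and at most 14.9 CPM in the other samples. Control replicate 1 stood apart: the chi-square per gene between its counts and those of another control was 25.8 to 42.8, against 5.46 to 14.0 among the other controls. Values without it are given for the tested members as a set and for *Jun*, *Junb* and *Egr1*. Of the 17998 genes that passed the filter on low counts, edgeR's quasi-likelihood test called 4.05% lower and 6.49% higher in the mutant, at an adjusted p under 0.05. The labels do not say whether the 4 samples of a group came from separate litters or how many pups each holds, so the p-values measure the spread between these samples.

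Levels between genes were compared per length, as fragments per kilobase of exon and total counts (FPKM). *Jund* was the most abundant member at 54.8 FPKM over all 8 samples, ahead of *Jun* at 21.6, *Ier2* at 9.51, *Junb* at 3.67, *Egr1* at 1.95, *Fos* at 1.16, *Atf3* at 0.381, *Fosb* at 0.107, *Egr2* at 0.0487 and *Egr3* at 0.0198 FPKM. *Jund* and *Jun* were thus present at far higher levels than the FOS and EGR genes in this tissue. In the controls the ranges of *Egr1* and *Fos*, of *Atf3* and *Fosb*, and of *Egr2* and *Egr3* overlapped, and the other neighbours in this order did not. Among *Mettl3*-CKO retinas the overlapping neighbours were *Junb* with *Egr1*, *Fosb* with *Egr2*, and *Egr2* with *Egr3*. *Egr2* and *Egr3* had 24 and 13 counts in all 8 samples together and did not pass the filter, so 8 of the 10 members were tested.

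**Figure D1:**
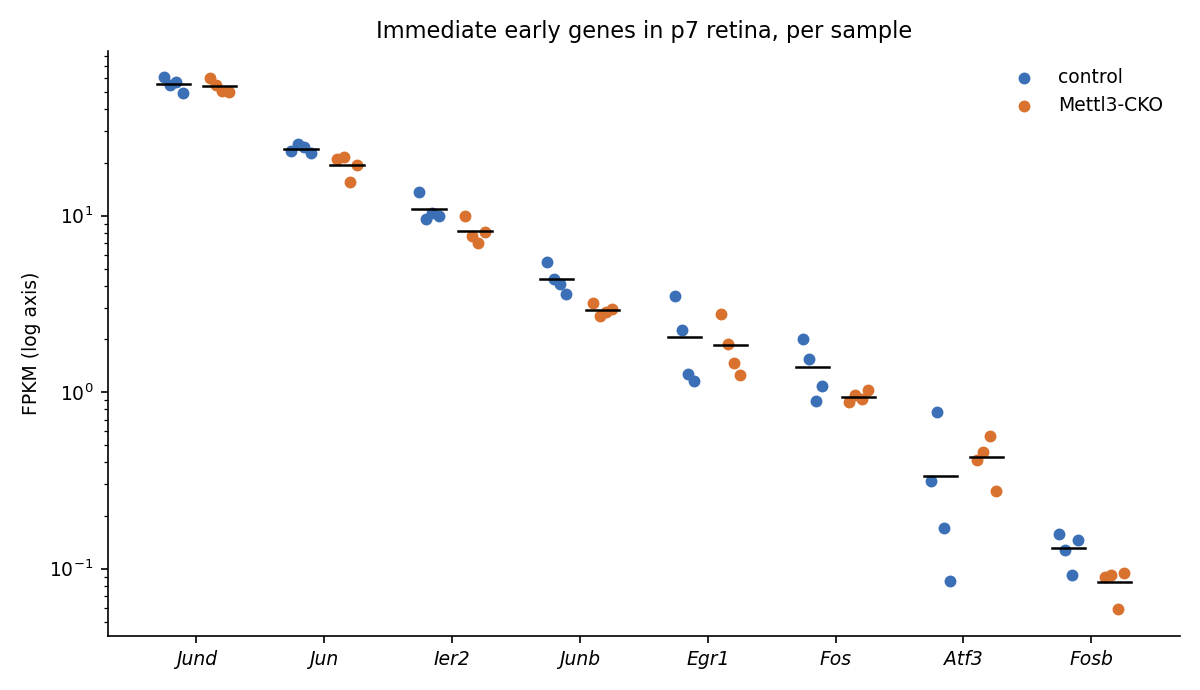
FPKM of the 8 tested members in each sample on a log axis, with control samples in blue, *Mettl3*-CKO samples in orange, replicates 1 to 4 from left to right within a group and black bars for group means (n = 4). The groups separate for *Junb* and *Jun*, and the control points of *Egr1* and *Atf3* are the most spread.

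*Junb* was the 1 member of 8 that edgeR called lower in *Mettl3*-CKO retinas, against 4.05% of all genes tested, and 0 were called higher. At an unadjusted p under 0.05, 3 were lower, against 11.1% of all genes, and 0 higher, against 13.5%. DESeq2 and limma voom each called 2 lower, *Jun* and *Junb*, and 0 higher, where DESeq2 called 5.48% and limma voom 8.71% of all genes lower. The shares called higher were 8% and 11.9%. Of the 8 fold changes 7 were negative, with a median log2 fold change of -0.37 against -0.01 over all genes tested. In the fit without control replicate 1, 5 of the 8 were negative, with a median of -0.29. *Junb*, whose protein is an AP-1 subunit that can restrain JUN, stood at 12.9, 10.04, 9.49 and 8.28 CPM in the controls, in order of replicate number here and for every gene, against 7.30, 6.26, 6.64 and 6.79 CPM in the mutants. All 4 *Mettl3*-CKO samples were below all 4 controls, with control replicate 1 standing highest. The control mean was 10.2 ± 1.98 CPM (SD, n = 4) and the mutant mean 6.75 ± 0.430 CPM (SD, n = 4). This is a log2 fold change of -0.60 (SE 0.15, edgeR adjusted p = 0.0272). The call was lost on leaving out control replicate 2 or any one of the *Mettl3*-CKO replicates (adjusted p 0.0580 to 0.0706 in those fits), while the log2 fold change stayed between -0.68 and -0.46 in all 8 fits that left out 1 sample. Without control replicate 1 it was -0.46 (adjusted p = 0.0322). *Junb* shares 173 of its 2301 exonic bases with the last exon of *Prdx2* on the opposite strand, and strand use in counting is not given, so its counts are uncertain to that extent. *Prdx2*, an antioxidant enzyme gene with 7707 to 11557 counts per sample, had a log2 fold change of -0.08 (adjusted p = 0.701).

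*Jun*, which encodes the AP-1 subunit c-JUN, also separated the groups, but missed the threshold. Its level was 76.6, 80.8, 78.7 and 71.4 CPM in the controls, against 66.1, 68.8, 49.8 and 61.1 CPM in the mutants. The highest *Mettl3*-CKO sample lay just under the lowest control, and *Mettl3*-CKO replicate 3 was well below the other samples. The log2 fold change was -0.32 (SE 0.10, adjusted p = 0.0683), with a 95% interval of -0.55 to -0.10. DESeq2 gave an adjusted p of 0.0327, limma voom 0.0106 and the fit without control replicate 1 gave 0.0441, while the 7 other fits without 1 sample gave 0.0671 to 0.1803. Over all genes tested, the 4 *Mettl3*-CKO values lay below the 4 control values for 7.58%, against these 2 of 8 members. *Jun* shares 232 of its 3189 exonic bases with the antisense gene *Junos*, which had 300 counts over all samples.

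*Jund*, the JUN family member with the steadiest expression in most tissues, overlapped between the groups. Controls held 105, 90.8, 95.9 and 82.5 CPM and mutants 99.6, 92.4, 85.2 and 82.5 CPM. Control replicate 1 was the highest of the 8 samples (log2 fold change -0.06, SE 0.10, adjusted p = 0.779, 95% interval -0.27 to 0.15). Of its 1668 exonic bases, 877 also belong to the antisense gene *Gm11175*, listed with 0 counts, so the level of *Jund* is uncertain.

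*Fos*, the AP-1 subunit that responds most sharply to stimulation, was found at 4.87, 3.61, 2.10 and 2.54 CPM in the controls and at 2.05, 2.26, 2.18 and 2.39 CPM in the mutants. Control replicates 1 and 2 were high, whereas control replicates 3 and 4 lay at the level of the *Mettl3*-CKO samples. The control mean was 3.28 ± 1.24 CPM (SD, n = 4) and the mutant mean 2.22 ± 0.146 CPM (SD, n = 4). The log2 fold change of -0.56 (SE 0.26, edgeR adjusted p = 0.208) did not pass the threshold. The SD of log2 CPM was 0.52 in the controls and 0.09 in the mutants. On counts, *Fos* had 37 to 49 reads in *Mettl3*-CKO samples and 40 to 91 in controls. Its paralog *Fosb* had 7 to 12 and 11 to 19 reads, and a log2 fold change of -0.65 (SE 0.34, adjusted p = 0.259) with an interval of -1.37 to 0.08.

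*Ier2* stood at 21.3, 14.5, 15.8 and 15.05 CPM in the controls, against 15.1, 11.7, 10.7 and 12.2 CPM in the mutants. *Mettl3*-CKO replicate 1 overlapped the controls and the other 3 were below them. The log2 fold change was -0.43 (SE 0.15, adjusted p = 0.0951), with an interval of -0.75 to -0.10.

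*Egr1* varied most within groups relative to its abundance. Controls held 16.3, 10.04, 5.67 and 5.14 CPM and mutants 12.4, 8.41, 6.64 and 5.57 CPM. The highest control was 3.18 times the lowest, the highest *Mettl3*-CKO sample 2.22 times the lowest, and the mutant range lay inside the control range. The log2 fold change was -0.18 (SE 0.34, adjusted p = 0.807), with an interval of -0.91 to 0.56, and without control replicate 1 it was 0.25. The values are compatible with any difference within that interval, in either direction.

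*Atf3* was found at 0.696, 1.65, 0.367 and 0.181 CPM in the controls and at 0.885, 0.986, 1.22 and 0.586 CPM in the mutants. Its control samples rested on 13, 27, 7 and 3 counts. It was the only tested member with a positive log2 fold change (0.35, SE 0.52, adjusted p = 0.737). *Egr2* had 3, 3, 0 and 2 counts in the controls and 2, 6, 3 and 5 in the mutants, and *Egr3* had 2, 0, 1 and 3 against 1, 1, 0 and 5. Both were at or near the floor of 3 counts in most samples, and a difference was not detectable at this depth (adjusted p = 0.637 and 0.991 from edgeR without the filter).

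**Figure D2:**
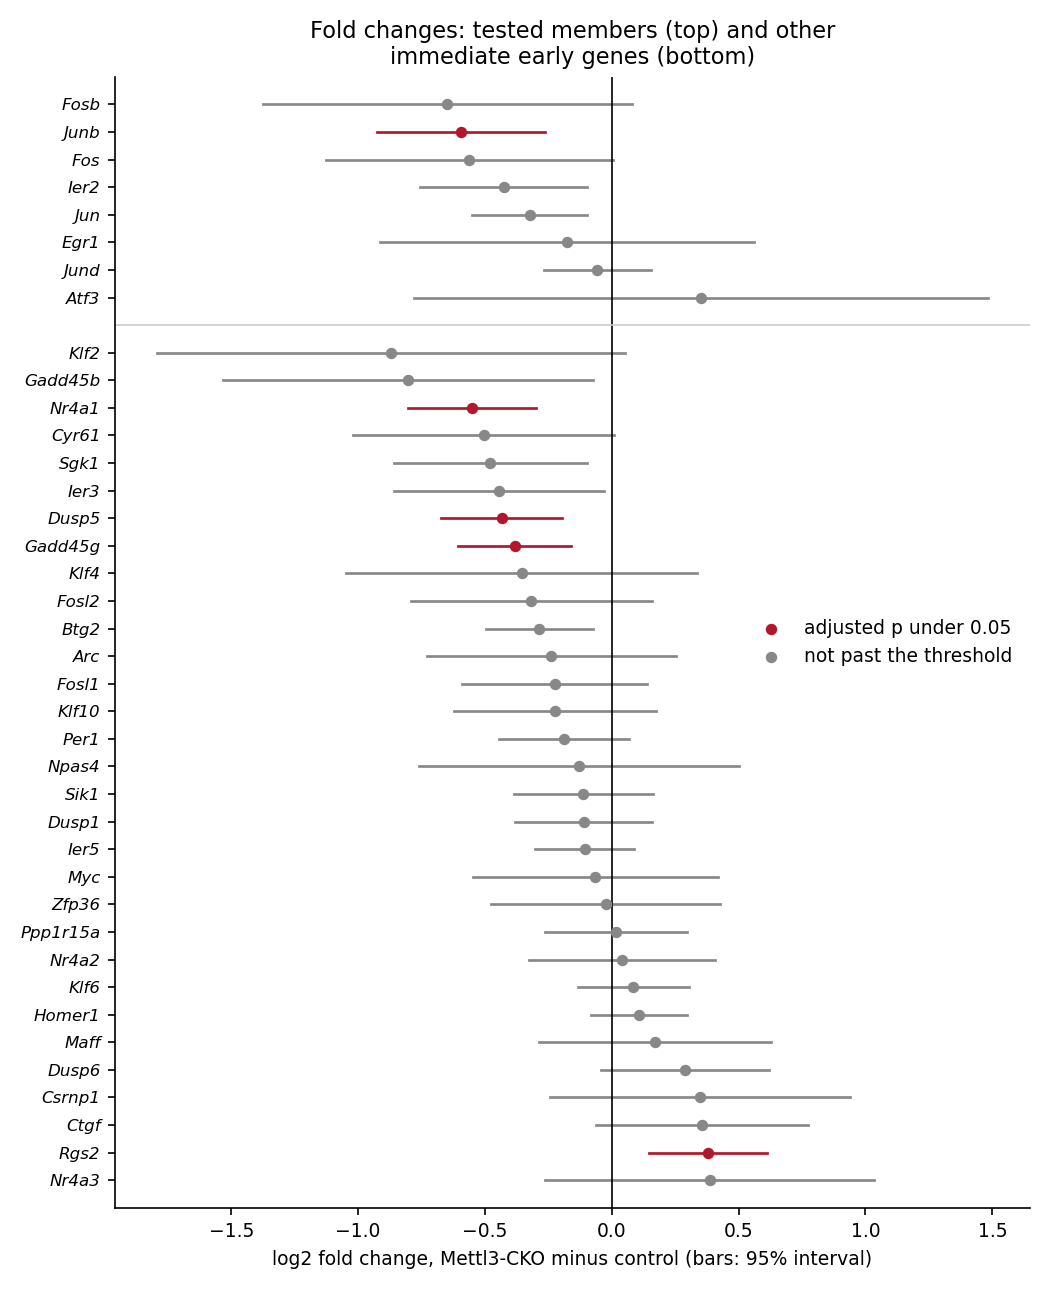
Log2 fold changes, *Mettl3*-CKO minus control, with 95% intervals (4 against 4 samples) for the 8 tested members above the grey line and the 31 tested genes of the wider list of immediate early genes below it. Red marks genes at an adjusted p under 0.05, which are *Junb* among the members and *Nr4a1*, *Dusp5*, *Gadd45g* and *Rgs2* in the wider list.

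The spread between samples of one genotype was compared with that of genes of like abundance (within 0.5 on the log2 CPM scale). *Egr1* had a pooled within-group SD of 0.64 on the log2 CPM scale, against a median of 0.22 for its 1544 neighbours in abundance, which put it at the 99.1st percentile. *Atf3* was at the 90.6th percentile, *Ier2* at the 72.9th, *Fos* at the 64.2nd, *Jun* at the 60.3rd, *Jund* at the 48.8th, *Junb* at the 40.3rd and *Fosb* at the 6.10th. *Fosb*, at the low end, rested on 97 counts in all, and its SD of 0.28 lay under the 0.41 that counting error alone gives. The SD was taken with the prior count of 2, which narrows it at low counts, and the counting error without it. The percentile of *Fosb* therefore does not show a steady level. The genes with the widest spread, *Egr1* and *Atf3*, were not those nearest to a genotype call. The test weighs a difference against that spread, so this follows in part from the test.

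**Figure D3:**
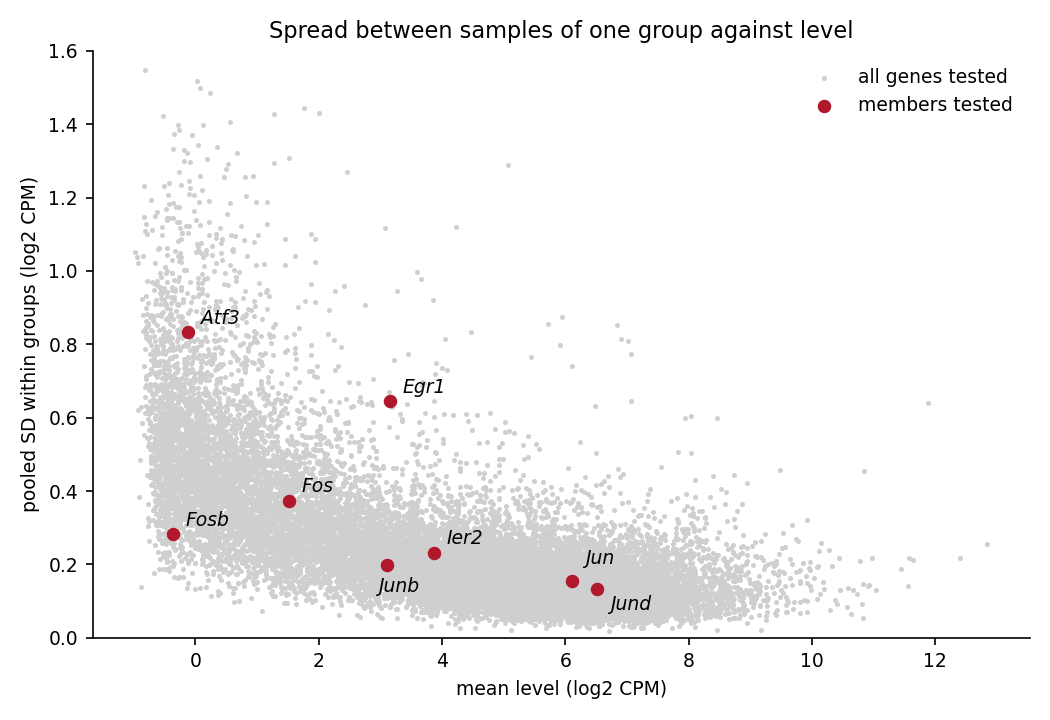
Pooled SD within groups (log2 CPM) against mean level (log2 CPM) for all genes tested in grey and the 8 tested members in red, with 24 genes above the upper limit of the axis. *Egr1* stands above nearly all genes of its abundance, and *Junb*, *Jun* and *Jund* lie within the cloud.

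The spread was larger among the controls. The control SD of log2 CPM exceeded the *Mettl3*-CKO SD for 7 of 8 members, *Jun* being the exception, and for 63.6% of all genes tested. Control replicate 1 was the highest of the 8 samples for 6 of 8 members, *Fos*, *Fosb*, *Junb*, *Jund*, *Egr1* and *Ier2*, and for 25.9% of all genes tested. Averaged over the 8 members, the deviation from the group mean was 0.38, 0.21, -0.26 and -0.34 on the log2 scale in the controls and 0.16, 0.05, -0.10 and -0.11 in the mutants. By this average, replicates 1 and 2 stood above their group mean and replicates 3 and 4 below it, in the controls and in the mutants alike. The 4 *Mettl3*-CKO samples sat closer together. In control replicate 2, 4 of the 8 members lay above their group mean, and *Atf3*, on 27 counts, deviated most at 1.40. The mean log2 CPM of the members was 3.41, 3.25, 2.78 and 2.70 in the controls against 2.96, 2.85, 2.69 and 2.69 in the mutants, so that control replicates 3 and 4 lay within the *Mettl3*-CKO range. When a sample was high for one member it tended to be high for others: of the 28 pairs of members, 26 had a positive Pearson r of their deviations over the 8 samples, with a median of 0.45, and *Junb* with *Egr1* reached 0.84. The pairs share libraries, and these r are descriptions.

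**Figure D4:**
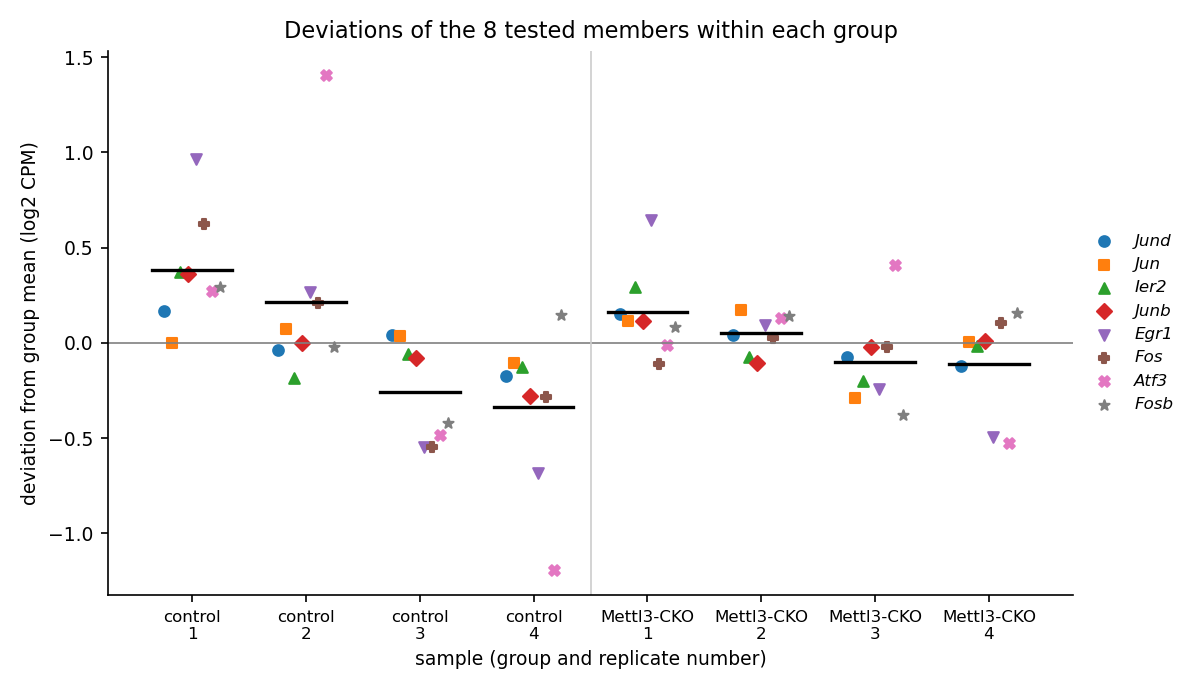
Deviation of each tested member from its own group mean (log2 CPM) in each of the 8 samples, with a symbol per gene and a black bar for the mean over the 8 members. The bars stand at 0.38 and 0.21 in control replicates 1 and 2 and at -0.26 and -0.34 in control replicates 3 and 4, and within 0.16 of 0 in *Mettl3*-CKO samples.

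Over 12817 other genes at a mean log2 CPM of at least 2, the 5 whose deviations were most like the mean deviation of the members were *Gas8* (r = 0.99), *Taf12* (0.99), *Ciapin1* (0.99), *Cpne4* (0.99) and *Tyw1* (0.99), over 8 samples, and none of them is an immediate early gene. Their own log2 fold changes lay between -0.12 and 0.24, with adjusted p of 0.303 to 0.983. In all, 1.54% of these genes had an r above 0.9. Of the 18 genes of the wider immediate early list among them, 11 had a positive r, with a median of 0.35 against 0.12 for all, and *Klf10*, a TGF-beta-induced transcription factor, was the highest at 0.91 and ranked 157. *Per1*, a clock gene, was the lowest at -0.84.

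The wider list held 32 further immediate early genes, of which 31 were tested, 3 were called lower against 4.05% of all genes, 1 was called higher against 6.49%, and 21 of 31 fold changes were negative, with a median of -0.13. At an unadjusted p under 0.05, 7 were lower and 1 higher, against 11.1% and 13.5% of all genes. DESeq2 called 4 lower and 1 higher, against 5.48% and 8% of all genes, and limma voom 3 lower and 1 higher, against 8.71% and 11.9%. *Nr4a1*, an orphan nuclear receptor, fell from 19.0 ± 1.88 to 13.0 ± 1.24 CPM (SD, n = 4 each, log2 fold change -0.55, SE 0.12, adjusted p = 0.0116). *Dusp5*, a phosphatase that inactivates nuclear ERK, fell from 54.1 ± 5.76 to 40.0 ± 5.03 CPM (log2 fold change -0.43, SE 0.11, adjusted p = 0.0259). *Gadd45g*, a growth arrest gene that is also active in neurogenesis, fell from 119 ± 16.3 to 91.0 ± 4.06 CPM (log2 fold change -0.38, SE 0.10, adjusted p = 0.0329). *Rgs2*, which dampens G protein signalling, rose from 37.4 ± 3.73 to 48.6 ± 5.81 CPM (log2 fold change 0.38, SE 0.11, adjusted p = 0.0415). The call held in 7 of 8 fits without 1 sample for *Nr4a1*, in 5 for *Dusp5* and in 2 each for *Gadd45g* and *Rgs2*, and the count called lower was 0 without *Mettl3*-CKO replicate 1 and 1 without *Mettl3*-CKO replicate 2 or control replicate 3. The count called higher was 0 without *Mettl3*-CKO replicate 1, 3 or 4 or control replicate 2, 3 or 4. *Btg2*, an antiproliferative gene and the most abundant of the list at 94.1 FPKM, had a log2 fold change of -0.29 (SE 0.10, adjusted p = 0.0805), and was the 1 further gene that DESeq2 called lower. The mean log2 CPM over the 31 genes was 3.19 to 3.29 in *Mettl3*-CKO retinas and 3.34 to 3.48 in controls, without overlap.

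Of the partners and repressors of AP-1 and EGR proteins, 10 of 12 were tested, and edgeR called 1 lower and 0 higher, with 2 lower and 2 higher at an unadjusted p under 0.05. Beside the counts in this paragraph, edgeR called 4.05% of all genes lower and 6.49% higher, or 11.1% and 13.5% unadjusted. DESeq2 called 5.48% lower and 8% higher, and limma voom 8.71% and 11.9%. *Maf*, a basic leucine zipper factor, fell from 45.9 ± 1.72 to 37.9 ± 1.51 CPM (log2 fold change -0.28, SE 0.08, adjusted p = 0.0414), a call that held in 1 of 8 fits without 1 sample. *Nab2*, a corepressor of EGR proteins, had a log2 fold change of 0.60 (SE 0.20, adjusted p = 0.0728), and was the 1 gene of this list that DESeq2 called higher, while limma voom called *Batf3*. Among 17 upstream transcription factors and coactivators, edgeR called 1 lower and 0 higher, with 3 lower and 1 higher at an unadjusted p under 0.05. DESeq2 called 2 lower and limma voom 4, *Crem* being in both, and both called *Elk1* higher. The gene that edgeR called lower was *Crem*, a CREB family gene, which fell from 21.3 ± 1.66 to 15.5 ± 0.857 CPM (log2 fold change -0.46, SE 0.10, adjusted p = 0.0154, held in 7 of 8 fits without 1 sample). *Srf* had a log2 fold change of -0.13 (adjusted p = 0.396) and *Creb1* one of -0.04 (adjusted p = 0.864). For 15 MAP kinases and kinase relays edgeR called 0 in either direction (1 higher and 2 lower at an unadjusted p under 0.05), DESeq2 called 1 lower and limma voom 3, *Map2k2* being in both. Of 11 AU-rich element binding proteins 0 were called by edgeR, DESeq2 or limma voom, and 0 had an unadjusted p under 0.05. The median log2 fold changes of these lists were -0.05 and 0.01.

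Markers of other cell types moved with the groups. Of 8 tested endothelial markers 6 were called lower in *Mettl3*-CKO retinas, and their mean log2 CPM ran from 2.61 to 3.88 over controls and from 1.43 to 2.19 over mutants, highest in control replicate 1. The summed level of all 9 endothelial markers was 551 to 650 CPM in controls and 536 to 633 CPM in mutants. Nearly all of it was *Kdr*, which retinal progenitors also express, at 549 ± 59.9 and 558 ± 41.1 CPM (SD, n = 4 each). *Cdh5*, which defines endothelium, averaged 5.45 ± 4.04 CPM in controls and 1.49 ± 0.517 CPM in mutants. Of 8 microglial markers edgeR and DESeq2 called 0, with 1 higher at an unadjusted p under 0.05, and limma voom called 6 higher. Their summed level ran from 44.3 to 146 CPM over controls and from 77.6 to 117 CPM over mutants, highest in control replicate 1. All 5 erythrocyte markers, of which 3 were tested, summed to 13.9 to 26.3 CPM over controls and 4.29 to 7.18 CPM over mutants. Among the controls these sums were lowest in replicates 1 and 2. Called lower were also 5 of 6 rod, 2 of 4 pericyte, 2 of 4 astrocyte, 4 of 7 pigment epithelium, 2 of 3 erythrocyte, 1 of 6 amacrine, 1 of 4 bipolar and 1 of 6 Müller glial markers. Of 5 tested lens markers edgeR called 3 lower while DESeq2 and limma voom called 0. The summed level of all 8 lens markers was 4.20 CPM in control replicate 3, below that of every mutant. Called higher were 2 of 7 progenitor markers, 1 of 4 pericyte markers and 1 of 6 Müller glial markers. Of all genes tested, edgeR called 4.05% lower and 6.49% higher. The part of these cell types, of time in dissection, which the labels do not give, and of RNA handling in the levels of immediate early genes was not tested, and in whole tissue fewer expressing cells and less RNA per cell cannot be told apart. With the endothelial marker level of each sample in the model, *Junb* had a log2 fold change of -0.20 (adjusted p = 0.555), and with that of the wider immediate early list -0.16 (adjusted p = 0.667). Both levels themselves separate the groups.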

How the data were processed

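RNA-seq was performed by the authors on whole p7 retina, 4 *Mettl3*-CKO and 4 control samples. Per their methods, the authors prepared NEBNext Ultra libraries, filtered the paired-end reads, aligned these to GRCm38 by Hisat2 and used featureCounts for gene-level counting. The values deposited by the authors are unnormalized whole-number counts. Annotation release and strand setting are not given in the sources used here. All 8 columns matched a sample label. The authors used DESeq2.

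From the counts, filterByExpr kept 17998 genes, TMM gave the scaling, and edgeR 4.0.16 (R 4.3.3) ran its quasi-likelihood test (Benjamini-Hochberg, threshold 0.05). The SE of a log2 fold change was derived from its F statistic. DESeq2 1.42.0, limma 3.58.1 (voom with sample quality weights), other scalings, filters, covariates and fits without samples were alternatives. CPM uses TMM library sizes, log2 CPM a prior count of 2, and FPKM total counts and the file's gene lengths. Counting error alone is small for *Jun* and *Jund* and large for *Fosb*, *Atf3*, *Egr2* and *Egr3*. The lowest chi-square between a pair of samples was 5.46 per gene, so none was counted as 1 sample with another. The fits were tested on simulated data. Genes are named as all 10 members, genes of the fixed pathway and marker lists that passed the threshold or were most abundant, and the 5 most alike in deviation; *Nab2*, *Batf3*, *Elk1*, *Map2k2*, *Srf*, *Creb1*, *Klf10*, *Per1*, *Kdr*, *Cdh5* and *Prdx2* were named after their values were seen. The members and lists were chosen with earlier results of these data known.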

Additional observations from a re-analysis of the deposited data

Results flagged for a closer look

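Of 20 sets of 4 values screened for a sample far from the others (log2 CPM of each of the 8 tested members, and the means of the members and of the wider list, in each group), 2 stood out, where chance alone gives about 1 in 20.

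*Fosb* was at -1.05 log2 CPM in *Mettl3*-CKO replicate 3, with 7 counts, while the other *Mettl3*-CKO samples lay between -0.59 and -0.52 with 10 to 12 counts. The mean log2 CPM of the 31 tested genes of the wider immediate early list was 3.48 in control replicate 1 and 3.34 to 3.36 in the other controls. The same sample had the highest levels of 6 of the 8 tested members. It was also the highest in the summed level of rod (3644 CPM), Müller glial (2613 CPM), bipolar (1339 CPM), pericyte (67.6 CPM), astrocyte (211 CPM), pigment epithelium (103 CPM) and microglial markers (146 CPM) and in the mean log2 level of endothelial markers, and the lowest in that of progenitor markers (1690 CPM).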

How the results depend on the processing

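*Junb* had a negative log2 fold change in all 19 alternatives and was called in 12 (adjusted p 0.00731 to 0.667). The number of members called lower, 1 as reported, was 2 with DESeq2, with limma voom and with the replicate block, 0 with the wider immediate early list or the endothelial markers as covariate, and 0 to 2 without 1 sample (0 without any one *Mettl3*-CKO replicate or control replicate 2, and 2 without control replicate 1). The number called higher was 0 throughout. For the wider list, the number called lower, 3 as reported, was 1 with its own mean as covariate and 0 to 4 without 1 sample, and the number called higher, 1 as reported, was 0 to 1 without 1 sample.

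Some fold changes past no threshold turned direction. With the wider list or the endothelial markers as covariate, *Fos* was at 0.24 and 0.17, *Jund* at 0.049 and 0.036 and *Egr1* at 0.83 and 0.72. *Egr1* was at 0.082 with limma voom, between -0.43 and 0.25 without 1 sample and at 0.072 without control replicates 1 and 4, *Jund* was between -0.11 and 0.0031 without 1 sample, and *Atf3* was at -0.11 without control replicates 1 and 4. The cause was not tested.

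Replicate numbers are shared by the groups. Over all genes tested, same-numbered samples deviated together in only 2 of 4 pairs (r = -0.11, 0.22, -0.11 and 0.25), and only replicates 2 and 4 correlated best with their own number. The numbers were therefore not taken to pair the samples. The mean deviation of the members did fall from replicate 1 to 4 in both groups (0.38, 0.21, -0.26 and -0.34 in controls, 0.16, 0.05, -0.10 and -0.11 in mutants). With the replicate block the SE fell from 0.34 to 0.15 for *Egr1* and from 0.15 to 0.10 for *Ier2*, and rose from 0.34 to 0.36 for *Fosb*. *Ier2* was then called as well (adjusted p = 0.0370). What samples of one number shared was not tested. Low counts limit *Fosb*, *Atf3*, *Egr2* and *Egr3*.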
